A study of Mus musculus with 4 samples.

Results

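Messenger RNA of cholesterol synthesis and sterol regulation genes was compared in cardiomyocytes that had been differentiated from the mouse embryonic stem cell line CGR8. The set held 28 genes: the enzymes that carry acetyl-CoA to cholesterol, the proteins that sense sterol, and a few proteins that move it. The genes were taken from a fixed list of symbols, chosen with earlier results of these data known. Each was found through the RefSeq accession of its probes. All 28 were among the 14989 named genes tested, of 20726 features in all, and were read by 38 probes, the brightest probe of each gene being used. Sc4mol is listed by RefSeq under its current symbol, Msmo1. The siErbB4 cells carried small interfering RNA directed at Erbb4, a neuregulin receptor gene, and the siScr cells a scrambled one, in both cases for 48 hours. Both groups shared the CGR8 line, the transfection agent Pepmute and DMEM-LG medium with 2% serum at 5% CO2, and an incubation given as 6 or 24 hours without saying which. There were 2 samples per group and 1 single-colour Agilent array per sample, a number that limits all precision here. No source states that replicates are separate cultures, and p-values may thus reflect technical spread alone.

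Cholesterol synthesis starts with the condensation of acetyl-CoA units to mevalonate, goes on through phosphorylated isoprenoids to squalene, and closes squalene into lanosterol, from which the late enzymes make cholesterol. Its genes are driven together by the transcription factors SREBP1 and SREBP2, encoded by Srebf1 and Srebf2. When membrane sterol is low, the escort protein SCAP takes SREBP from the endoplasmic reticulum to the Golgi, where it is cut and released, and when sterol is high the INSIG proteins hold SCAP back. SREBP binds sterol regulatory elements in promoters beside NF-Y, which binds the CCAAT box, and Sp1. Cardiomyocytes, like most cells, make part of their own membrane cholesterol and take up the rest from lipoproteins.

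Promoter windows of 31 starts, belonging to 23 of the 28 genes, were read from RefSeq (GRCm38.p6), each from 250 bases before to 50 after a start. Fdps, Fdft1, Sqle, Stard4 and Npc1 were not matched. The windows were searched on both strands. CCAAT was found in 21 of the 31 windows, against 37.4% of all 32851 windows, and 2 or more in 12 of the 31, against 11.7% of all. GGGCGG, a core of Sp1 sites, was in 25 windows, against 35.7% of all. TCACNCCAC, a form of the sterol regulatory element, was in 1, that of Hmgcs1, against 1.24% of all, and CACGTG, an E-box, was in 7, against 7.15%. Motifs were counted separately, and overlaps between them were not removed. Windows of 4 genes, chosen after the differences were seen, are shown because they set the gene with the smallest difference between siErbB4 and siScr (Hmgcs1) beside the 3 late-pathway genes with differences beyond -0.5 (Nsdhl, Dhcr7 and Tm7sf2). Capitals mark CCAAT on either strand and, in Hmgcs1, also the sterol regulatory element. A match describes letters only, and says nothing of whether a factor was bound.

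Hmgcs1 (chr13:119690101-119690400, plus strand): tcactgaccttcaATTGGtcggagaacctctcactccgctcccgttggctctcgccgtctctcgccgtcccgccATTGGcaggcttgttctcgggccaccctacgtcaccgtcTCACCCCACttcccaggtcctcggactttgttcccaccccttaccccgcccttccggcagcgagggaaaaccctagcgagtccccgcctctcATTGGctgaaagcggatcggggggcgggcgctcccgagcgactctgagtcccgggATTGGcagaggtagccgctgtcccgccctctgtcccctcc

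Nsdhl (chrX:72918271-72918570, plus strand): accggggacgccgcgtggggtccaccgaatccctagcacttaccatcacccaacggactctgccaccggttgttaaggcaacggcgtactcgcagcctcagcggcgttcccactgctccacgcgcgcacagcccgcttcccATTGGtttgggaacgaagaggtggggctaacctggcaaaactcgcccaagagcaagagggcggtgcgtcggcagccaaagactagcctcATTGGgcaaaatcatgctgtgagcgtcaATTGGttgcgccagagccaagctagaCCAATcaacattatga

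Dhcr7, most downstream of 3 starts (chr7:143829964-143830263, plus strand): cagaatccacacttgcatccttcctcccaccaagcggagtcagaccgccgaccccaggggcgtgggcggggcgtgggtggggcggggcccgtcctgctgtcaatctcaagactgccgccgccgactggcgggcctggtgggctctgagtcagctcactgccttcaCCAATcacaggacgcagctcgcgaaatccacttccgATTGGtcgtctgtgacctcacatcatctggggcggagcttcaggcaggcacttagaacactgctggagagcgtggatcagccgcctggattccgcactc

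Tm7sf2 (chr19:6067801-6068100, minus strand): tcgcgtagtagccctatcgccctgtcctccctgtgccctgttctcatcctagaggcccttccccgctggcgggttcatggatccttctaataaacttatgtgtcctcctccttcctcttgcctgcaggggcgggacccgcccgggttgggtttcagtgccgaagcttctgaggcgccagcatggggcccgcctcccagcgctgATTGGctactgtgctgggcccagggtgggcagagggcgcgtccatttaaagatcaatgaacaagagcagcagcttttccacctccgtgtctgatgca

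The Hmgcs1 window held 4 CCAAT boxes, the one nearest upstream of the start lying 45 bases from it, and its sterol regulatory element lay 137 bases upstream. The Nsdhl window held 4, 2 of them upstream, at 109 and 20 bases, and 2 downstream, at 8 and 34 bases. The Dhcr7 window held 2, at 85 and 49 bases upstream, and that of Tm7sf2 held 1, at 47 bases. The other 2 Dhcr7 windows held none.

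Processed signals had a 75th percentile of 943 and 938 on the siErbB4 arrays, against 989 and 878 on the siScr arrays. The share of spots well above background was 65.5% to 69.1%. The single Erbb4 probe gave processed signals of 2.83 and 15.0 on the siErbB4 arrays, against 9.02 and 11.9 on the siScr arrays. Only 1 of these signals cleared the background threshold, that of siErbB4 replicate 2, and the knockdown was therefore not checked by this probe. Groups were taken from sample titles and the transfection entry, although other fields differ from them. The descriptions of both siErbB4 samples mention the scrambled RNA, and ErbB5 stands in the source name for siErbB4 replicate 2. All 15 cardiomyocyte markers were well above background on all 4 arrays. The arrays shared 1 slide, with the replicate 2 arrays at positions 1 and 2 and the replicate 1 arrays at positions 3 and 4, so that replicate number and position cannot be told apart. The siScr arrays held positions 1 and 3 and the siErbB4 arrays 2 and 4. Within a replicate number, group and position cannot be told apart either.

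The array of siScr replicate 1 stood apart. It had the highest value of the 4 arrays for 19 of the 28 genes, against 29.2% of all features. The lowest value came from siErbB4 replicate 2 for 13 genes, against 23.5% of all features, and from siErbB4 replicate 1 for 10, against 25.1%. The median distance of the 28 genes from their own 4-array means was -0.067 and -0.12 log2 units on siErbB4 replicates 1 and 2, against 0.23 and 0.0018 on siScr replicates 1 and 2. Counts of negative differences over the 28 genes, the pathway steps and the lipid lists are given with and without it. Without it, siErbB4 replicates 1 and 2 are set against siScr replicate 2, so that part of any replicate difference enters. Fibroblast and matrix markers were also highest on the siScr replicate 1 array. Their 12 tested genes of 12 had summed scaled signals, in multiples of the 75th percentile, of 24.6 and 8.83 on the siErbB4 arrays, against 42.8 and 11.3 on the siScr arrays, and siScr replicate 1 was highest for 11 of them. All 12 were well above background on every array. The part of these cells in the sterol results was not tested. In bulk RNA, fewer cells of a type and less RNA per cell cannot be told apart.

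Most genes of the set had lower values in the siErbB4 arrays, by small amounts, and none passed the test. The log2 difference (siErbB4 minus siScr) was negative for 25 of the 28 genes, where 52.8% of all features were negative. Its median was -0.18 over the 28, against -0.014 over all features, and it ran between -0.56 for Tm7sf2 and 0.13 for Stard4. For 15 of the 28 both siErbB4 arrays lay below both siScr arrays, against 15.9% of all features, and for 0 both lay above, against 13.0%. With limma and Benjamini-Hochberg adjustment 0 of the 28 genes and 0 of 20726 features (0.0%) had an adjusted p under 0.05, and the lowest adjusted p among the 28 was 1.00. An unadjusted limma p under 0.05 was found for 2 of the 28, Nsdhl and Dhcr7, both lower, against 1.76% of all features, or 0.888% on the lower side. Without siScr replicate 1 the difference was negative for 21 of the 28, against 55.1% of all features, the median was -0.077, and both siErbB4 arrays lay below siScr replicate 2 for 16, against 36.5%. All 28 were read on the same 4 arrays, so the counts are not counts of independent events.

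**Figure D1:**
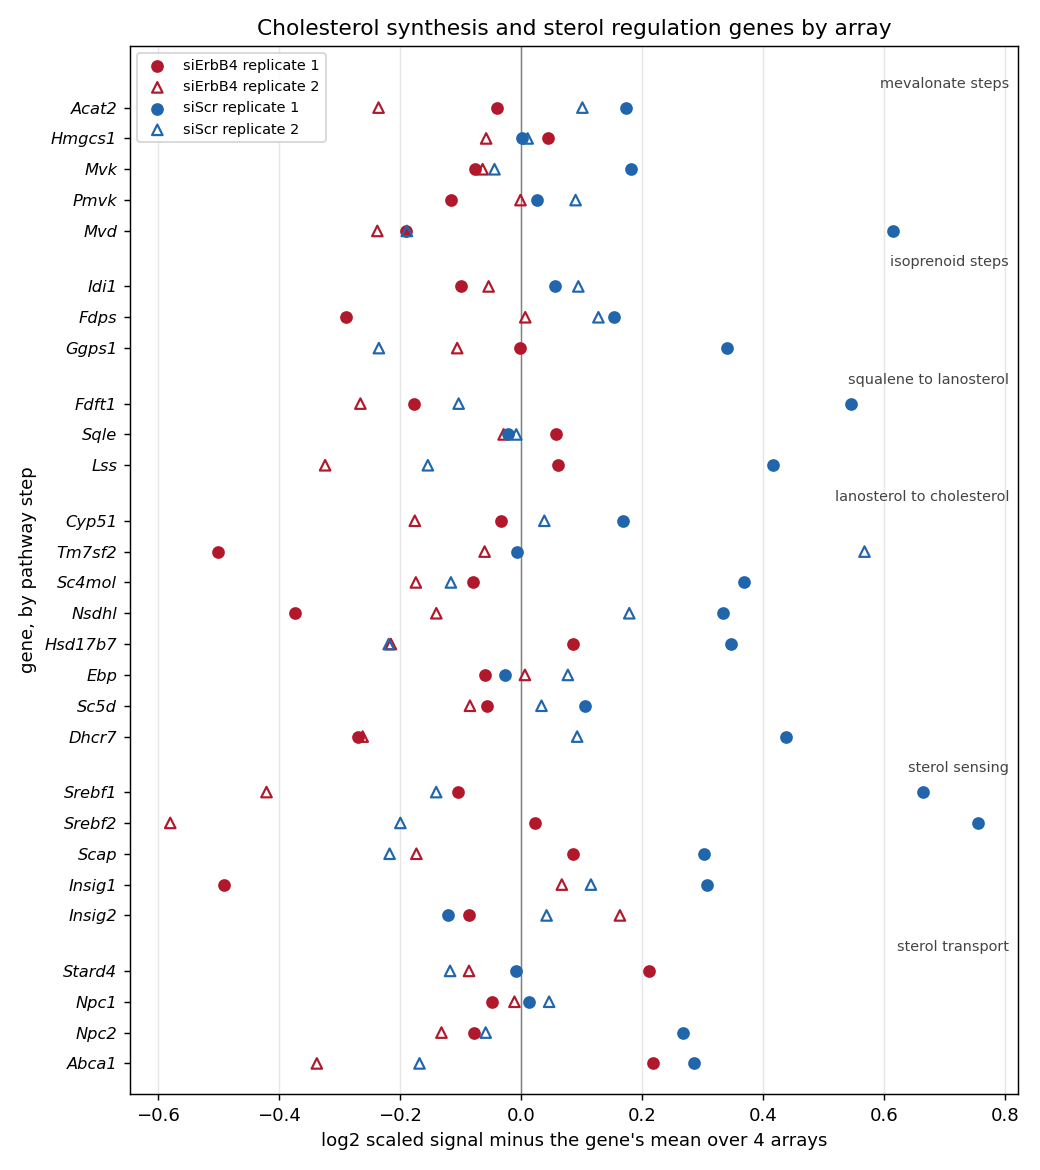
Each point is 1 gene on 1 array, as the log2 scaled signal minus that gene's mean over the 4 arrays, with genes down the page by pathway step. Filled circles are replicate 1 and open triangles replicate 2, red for siErbB4 and blue for siScr, and the siScr replicate 1 array is rightmost for 19 of the 28 genes.

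Values of single genes are log2 processed signals minus the array's 75th percentile, so that 0 is that percentile, and the 2 values of a group are those of replicates 1 and 2. Adjusted limma p-values between siErbB4 and siScr were 1.00 for every gene, by the Benjamini-Hochberg method. The 5 mevalonate genes all had negative differences, with a median of -0.14. Acat2, the cytosolic thiolase that joins the first acetyl-CoA units, had -2.30 and -2.49 on the siErbB4 arrays, against -2.08 and -2.16 on the siScr arrays. Both siErbB4 values were below both siScr values, at a mean difference of -0.28 (SE 0.15). Hmgcs1, the synthase that makes HMG-CoA, had 3.31 and 3.21 on the siErbB4 arrays, against 3.27 and 3.28 on the siScr arrays. Here the groups overlapped, with the highest and the lowest value both from siErbB4, and the difference was -0.013 (SE 0.13), with a 95% interval of -0.37 to 0.35.

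Mvk, which encodes mevalonate kinase, had 2.18 and 2.19 on the siErbB4 arrays, against 2.44 and 2.21 on the siScr arrays, and its difference was -0.14 (SE 0.15). The groups were separated by a narrow margin, with siScr replicate 1 above the other 3. Pmvk, for the kinase of the next step, had 3.33 and 3.45 on the siErbB4 arrays, against 3.48 and 3.54 on the siScr arrays, a difference of -0.12 (SE 0.13) without overlap. Mvd, which encodes the decarboxylase that yields isopentenyl diphosphate, had 0.43 and 0.38 on the siErbB4 arrays, against 1.24 and 0.43 on the siScr arrays. The difference of -0.43 (SE 0.31) rested on siScr replicate 1, the other 3 arrays lying close together and siScr replicate 2 above siErbB4 replicate 1 by less than the printed digits show.

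The 3 isoprenoid genes had a median difference of -0.15. Idi1, the isomerase of isopentenyl diphosphate, had 1.81 and 1.86 on the siErbB4 arrays, against 1.97 and 2.00 on the siScr arrays. Replicates lay close together and the groups did not overlap, at a difference of -0.15 (SE 0.13). Fdps, whose product makes farnesyl diphosphate, had 3.52 and 3.82 on the siErbB4 arrays, against 3.96 and 3.94 on the siScr arrays, a difference of -0.28 (SE 0.16) in which siErbB4 replicate 1 was lowest. Ggps1, which makes geranylgeranyl diphosphate for protein prenylation and so branches off the sterol path, had 0.25 and 0.14 on the siErbB4 arrays, against 0.59 and 0.015 on the siScr arrays. Its groups overlapped, siScr holding both the highest and the lowest value, and the difference was -0.11 (SE 0.24).

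Between squalene and lanosterol, the 3 genes had a median difference of -0.26. Fdft1, which encodes squalene synthase, had 1.25 and 1.16 on the siErbB4 arrays, against 1.97 and 1.32 on the siScr arrays, with a difference of -0.44 (SE 0.26) and no overlap, siScr replicate 1 standing above the rest. Sqle, the squalene epoxidase at a controlled step of the pathway, had 2.62 and 2.53 on the siErbB4 arrays, against 2.54 and 2.55 on the siScr arrays. All 4 values lay within a small range and the difference was 0.029 (SE 0.13), with a 95% interval of -0.33 to 0.39. Lss, which closes the rings to lanosterol, had -0.90 and -1.28 on the siErbB4 arrays, against -0.54 and -1.11 on the siScr arrays, with overlap and a difference of -0.26 (SE 0.27).

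The 8 genes from lanosterol to cholesterol were all negative, with a median of -0.23, where 52.8% of all features were negative. For 5 of them both siErbB4 arrays lay below both siScr arrays, against 15.9% of all features. Without siScr replicate 1 the difference was negative for 7 of the 8, against 55.1%, the exception being Hsd17b7. Nsdhl, a sterol dehydrogenase that removes methyl groups together with Sc4mol and Hsd17b7, had -0.64 and -0.41 on the siErbB4 arrays, against 0.067 and -0.088 on the siScr arrays. Both siErbB4 values lay well below both siScr values, at a difference of -0.51 (SE 0.16), a 95% interval of -0.95 to -0.072 and an unadjusted limma p of 0.0319. Dhcr7, a reductase of the last steps, had -1.51 and -1.50 on the siErbB4 arrays, against -0.80 and -1.15 on the siScr arrays. The siErbB4 arrays were almost equal and below both siScr arrays, with a difference of -0.53 (SE 0.17), a 95% interval of -1.01 to -0.049 and an unadjusted limma p of 0.0377.

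Tm7sf2, a sterol reductase of the lamin B receptor family, had 0.17 and 0.61 on the siErbB4 arrays, against 0.66 and 1.24 on the siScr arrays. It gave the lowest difference of the set, -0.56 (SE 0.28), and differed from most other members in that siScr replicate 2, not replicate 1, was highest. Cyp51, the lanosterol demethylase, had -1.06 and -1.20 on the siErbB4 arrays, against -0.86 and -0.99 on the siScr arrays, a difference of -0.21 (SE 0.14) without overlap. Sc5d, a sterol desaturase, had 0.77 and 0.74 on the siErbB4 arrays, against 0.93 and 0.86 on the siScr arrays, also without overlap, at -0.14 (SE 0.13). Sc4mol, the methyl sterol oxidase, had 3.65 and 3.56 on the siErbB4 arrays, against 4.10 and 3.62 on the siScr arrays, with overlap and a difference of -0.25 (SE 0.21). Only siScr replicate 1 stood apart there. Hsd17b7, the reductase that acts beside Nsdhl, had -0.66 and -0.96 on the siErbB4 arrays, against -0.40 and -0.96 on the siScr arrays, and the replicate 2 arrays of both groups were equal within 0.01, at a difference between the groups of -0.13 (SE 0.26). Ebp, the sterol isomerase, had 2.85 and 2.92 on the siErbB4 arrays, against 2.89 and 2.99 on the siScr arrays, and its difference of -0.052 (SE 0.13) was the smallest in size of the 8.

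Among the sensing genes, the SREBP genes and Insig1 averaged lower in the siErbB4 arrays and Insig2 averaged higher, none past the test. Srebf1, which encodes the form that also drives fatty acid synthesis, had -1.97 and -2.28 on the siErbB4 arrays, against -1.20 and -2.003 on the siScr arrays. Srebf2, which encodes the form that mainly drives cholesterol synthesis, had -1.08 and -1.69 on the siErbB4 arrays, against -0.35 and -1.31 on the siScr arrays. In both, siErbB4 replicate 2 was lowest and siScr replicate 1 highest, siScr replicate 2 lay between the siErbB4 arrays, and the differences were -0.52 (SE 0.33) and -0.56 (SE 0.42). Without siScr replicate 1 they were -0.12 for Srebf1 and -0.079 for Srebf2. Those of Scap and Insig2 then changed sign, to 0.17 and -0.0037. These values mix replicate numbers, as siErbB4 replicates 1 and 2 were set against siScr replicate 2. Within the replicate 2 arrays alone, siErbB4 minus siScr was -0.28 for Srebf1, -0.38 for Srebf2, 0.044 for Scap and 0.12 for Insig2. Insig1, itself a target of SREBP, had -3.16 and -2.60 on the siErbB4 arrays, against -2.36 and -2.56 on the siScr arrays, without overlap and at -0.42 (SE 0.24). Here siErbB4 replicate 1 was lowest, while siErbB4 replicate 2 was within 0.05 of siScr replicate 2. Insig2, its paralogue, had 1.64 and 1.89 on the siErbB4 arrays, against 1.60 and 1.77 on the siScr arrays, with overlap and a difference of 0.077 (SE 0.16), and Scap had 1.97 and 1.71 on the siErbB4 arrays, against 2.19 and 1.67 on the siScr arrays, also with overlap, at -0.086 (SE 0.24).

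The transport genes were the group of the set with the median nearest 0, -0.089. Npc2, which hands cholesterol to NPC1 in the lysosome, had 3.29 and 3.24 on the siErbB4 arrays, against 3.64 and 3.31 on the siScr arrays, at -0.21 (SE 0.17) without overlap. Npc1 had -0.93 and -0.89 on the siErbB4 arrays, against -0.87 and -0.83 on the siScr arrays, and the difference of -0.059 (SE 0.13) was small although the groups did not overlap. Stard4, a carrier of free sterol and an SREBP target, had 0.26 and -0.036 on the siErbB4 arrays, against 0.041 and -0.067 on the siScr arrays. Here siErbB4 replicate 1 was above the other 3, and the difference was 0.13 (SE 0.17). Abca1, the exporter that is induced when sterol is in excess, had -0.71 and -1.26 on the siErbB4 arrays, against -0.64 and -1.09 on the siScr arrays, with overlap and a difference of -0.12 (SE 0.28).

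Without siScr replicate 1, each comparison set 2 siErbB4 arrays, replicates 1 and 2, against 1 siScr array, replicate 2. Part of any difference between replicate numbers therefore entered each value. The differences were negative for 5 of the 5 mevalonate genes, 2 of the 3 isoprenoid genes and 1 of the 3 genes between squalene and lanosterol. They were negative for 4 of the 5 sensing genes and 2 of the 4 transport genes, where 55.1% of all features were. With all 4 arrays these counts were, in the same order, 5, 3, 2, 4 and 3, where 52.8% of all features were negative. Without siScr replicate 1, Mvd, Fdft1 and Sc4mol had -0.025, -0.12 and -0.011, all nearer 0 than with 4 arrays. Mvk had -0.026 and Npc2 -0.047. Nsdhl, at -0.44, Dhcr7, at -0.36, and Fdps, at -0.27, moved less, and Tm7sf2 moved further from 0, to -0.85. Within the replicate 2 arrays alone, Nsdhl gave -0.32, Dhcr7 -0.35, Fdps -0.12 and Tm7sf2 -0.63.

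**Figure D2:**
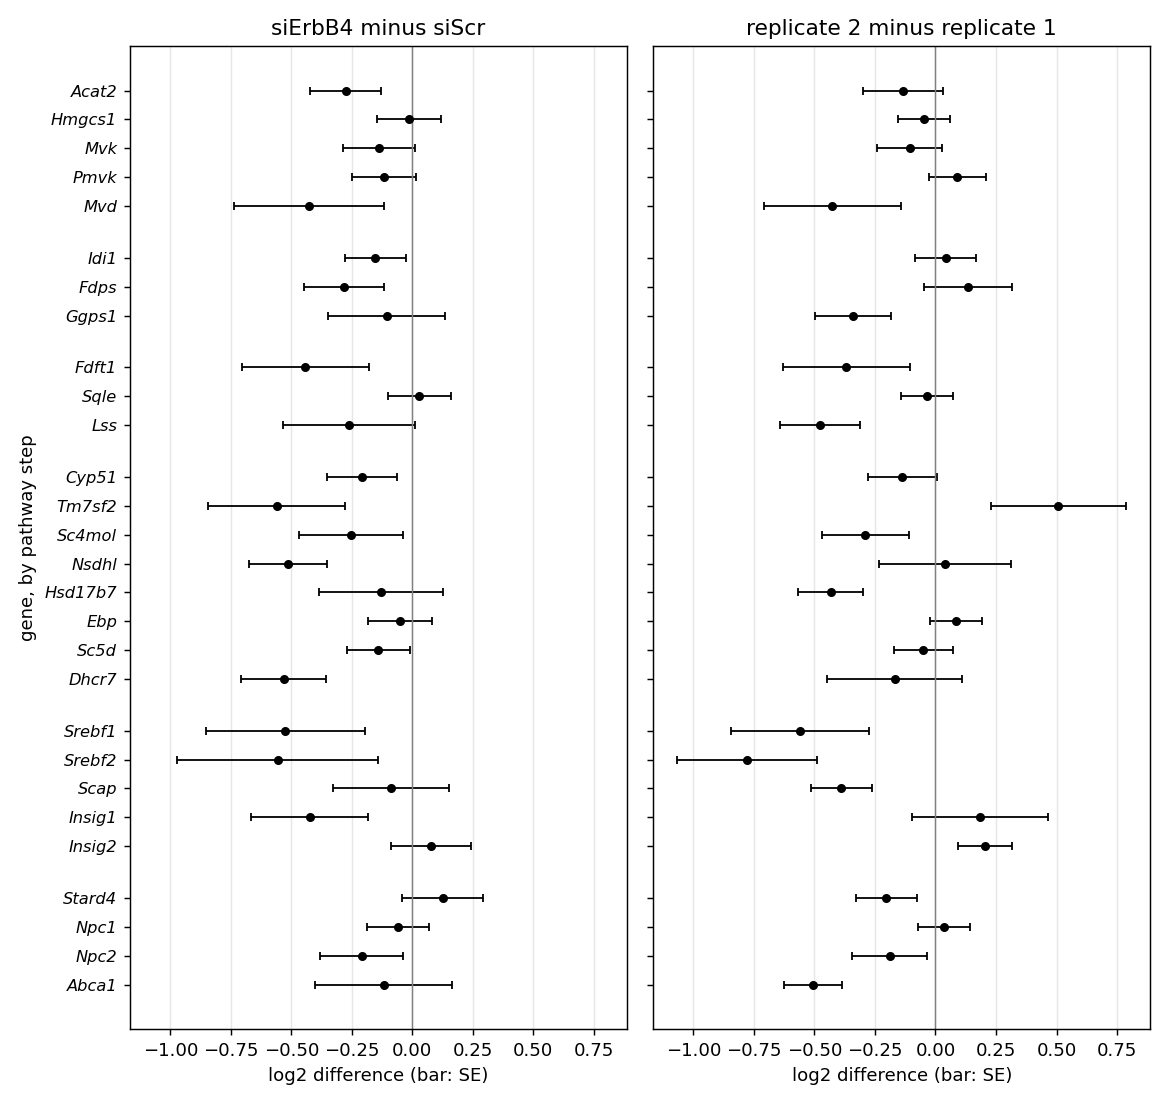
Points are log2 differences of the 28 genes and bars are limma's standard errors (2 arrays against 2), with siErbB4 minus siScr on the left and replicate 2 minus replicate 1 on the right. On the left 25 of the 28 points lie below 0, and on the right 19.

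Within same-numbered arrays, each difference rests on 1 array a side and has no test. In the replicate 1 arrays siErbB4 was below siScr for 24 of the 28 genes, with a median of -0.26, where 50.2% of all features were below. In the replicate 2 arrays it was below for 23, with a median of -0.082, where 55.4% of all features were. In both pairs 21 of the 28 were lower, against 33.6% of all features, and 2 were higher, against 28.0%. Those higher in both were Insig2 and Stard4. The pair 1 difference was the more negative for 20 of the 28, against 46.1% of all features.

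The genes differed in how alike the pairs were. Tm7sf2 gave -0.49 in the replicate 1 arrays and -0.63 in the replicate 2 arrays, and Cyp51 gave -0.20 in the replicate 1 arrays and -0.21 in the replicate 2 arrays. Idi1 gave -0.16 in the replicate 1 arrays and -0.15 in the replicate 2 arrays. In these 3 genes the pairs were close to each other. Mvd gave -0.80 in the replicate 1 arrays and -0.049 in the replicate 2 arrays, Insig1 -0.80 in the replicate 1 arrays and -0.048 in the replicate 2 arrays and Fdft1 -0.72 in the replicate 1 arrays and -0.16 in the replicate 2 arrays, so that most of their mean difference lay in the replicate 1 pair. Nsdhl gave -0.71 in the replicate 1 arrays and -0.32 in the replicate 2 arrays, and Dhcr7 gave -0.71 in the replicate 1 arrays and -0.35 in the replicate 2 arrays. Srebf2 gave -0.73 in the replicate 1 arrays and -0.38 in the replicate 2 arrays. In these 3 the siErbB4 array was the lower in either pair, by more in the replicate 1 arrays. By step, the medians of pairs 1 and 2 were -0.21 and -0.069 for mevalonate genes, and -0.34 and -0.12 for isoprenoid genes. They were -0.36 and -0.16 from squalene to lanosterol and -0.35 and -0.17 from lanosterol to cholesterol. For sensing they were -0.73 and -0.048, and for transport -0.064 and -0.065.

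**Figure D3:**
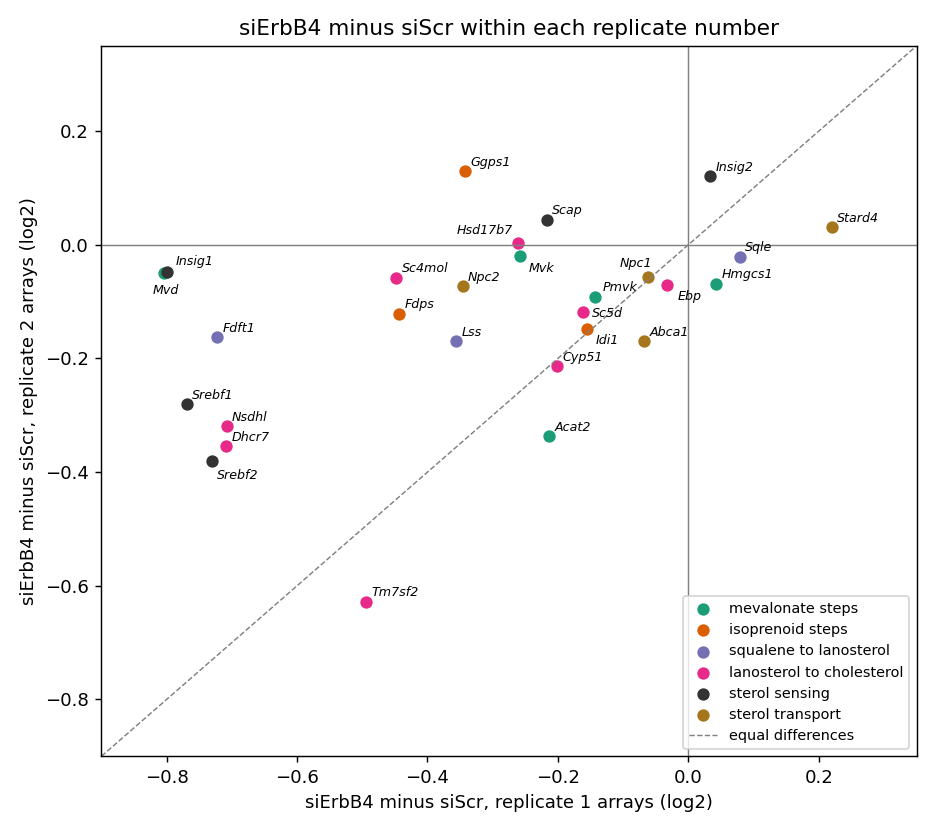
Each point is a gene, with its siErbB4 minus siScr log2 difference in the replicate 1 arrays across and in the replicate 2 arrays up, coloured by pathway step. The 21 points left of and below both zero lines were lower in both pairs, and the 20 points above the dashed line of equal differences had the more negative value in the replicate 1 arrays.

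The replicate numbers were compared as well, replicate 2 of both groups against replicate 1 of both. The labels do not say what the number stands for. Across all features 1084 of 20726 (5.23%) had an adjusted p under 0.05 by limma with Benjamini-Hochberg adjustment, but 0 of the 28 sterol genes did, the lowest being that of Abca1 at 0.0924. The median difference (replicate 2 minus replicate 1) was -0.14 over the 28 and 0.019 over all features, and it was negative for 19 of the 28, against 47.0% of features. An unadjusted limma p under 0.05 was found for 5 of the 28, against 23.0% of all features. Each was lower in replicate 2, the side that held 10.7% of all features. In size, the siErbB4 difference was the smaller of the 2 differences for 13 of the 28 and for 62.9% of all features.

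The 5 genes were Abca1, Hsd17b7, Scap, Lss and Srebf2. Abca1 had -1.26 and -1.09 on the replicate 2 arrays of siErbB4 and siScr, against -0.71 and -0.64 on the replicate 1 arrays, a difference of -0.50 (SE 0.12). Scap had 1.71 and 1.67 on the replicate 2 arrays of siErbB4 and siScr, against 1.97 and 2.19 on the replicate 1 arrays, a difference of -0.39 (SE 0.13). In both genes the replicate 2 arrays lay below the replicate 1 arrays in either group. Srebf2 had -1.69 and -1.31 on the replicate 2 arrays of siErbB4 and siScr, against -1.08 and -0.35 on the replicate 1 arrays, a difference of -0.78 (SE 0.29), the lowest of the set. Hsd17b7 and Lss gave -0.43 (SE 0.13) and -0.48 (SE 0.17). Tm7sf2 was the gene furthest on the other side, with 0.61 and 1.24 on the replicate 2 arrays of siErbB4 and siScr, against 0.17 and 0.66 on the replicate 1 arrays. It was higher in replicate 2 in each group and lower in siErbB4 in each pair, with a replicate difference of 0.51 (SE 0.28). Replicate sets did not overlap for 9 genes lower in replicate 2, against 26.0% of all features, and for 2 higher, Ebp and Insig2, against 29.4%. Within each group taken alone, 15 of the 28 were lower in replicate 2 both times, against 33.0% of all features, and 6 were higher both times, against 37.3%. The median was -0.070 within siErbB4 and -0.17 within siScr.

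A second kept probe read 10 of the genes, beside the one used for the values of genes. For 8 of the 10 its siErbB4 minus siScr difference had the sign of the brighter probe's. The dimmer probe gave -0.65 for Tm7sf2, -0.49 for Srebf2, -0.50 for Mvk and -0.24 for Nsdhl. It gave 0.15 for Insig2, -0.16 for Hsd17b7, -0.16 for Pmvk and -0.045 for Ggps1. Tm7sf2 and Srebf2 thus gave close values from both probes in that comparison, although the dimmer Srebf2 probe gave -0.25 for replicate 2 minus replicate 1, against -0.78 from the brighter one. Between siErbB4 and siScr the dimmer probe gave a difference of larger size than the brighter one for Mvk and of smaller size for Nsdhl. The signs were opposite for Stard4, at -0.062, and for Fdft1, at 0.0039. The dimmer Fdft1 probe cleared the background threshold on 3 arrays.

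Other genes of sterol and lipid metabolism were read from lists of textbook members. In the fatty acid synthesis arm, which SREBP1 drives, 13 of 16 genes had a negative siErbB4 minus siScr difference, against 52.8% of all features, with a median of -0.16, and 8 did not overlap between the groups on the lower side, against 15.9% of all features. The negative count was 11 without siScr replicate 1, against 55.1% of all features. With all 4 arrays the differences of the list ran between -0.86 and 0.18. None passed the test, and 1 had an unadjusted limma p under 0.05, against 1.76% of all features. This was the desaturase gene Scd2, named after its value was seen, with 5.32 and 5.45 on the siErbB4 arrays, against 5.76 and 5.83 on the siScr arrays, a difference of -0.41 (SE 0.14). The genes of that list with the lowest p in either comparison were Me1, the malic enzyme that supplies NADPH, at -0.00080 (SE 0.29), and Aacs, the acetoacetyl-CoA synthetase, at -0.33 (SE 0.41). Both had lower values in the replicate 2 arrays, at differences of -0.52 (SE 0.10) and -0.73 (SE 0.24), and neither passed that test.

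Genes that process SREBP or turn over its target enzymes were even between the groups, 6 of 12 positive and 6 negative, with differences between -0.26 and 0.15. Those with the lowest p, both between the replicate numbers, were Syvn1, a ubiquitin ligase of the endoplasmic reticulum, and Pgrmc1, a haem-binding membrane protein, at -0.34 (SE 0.12) and -0.33 (SE 0.12) (replicate 2 minus replicate 1). Branches that use isoprenoids for other ends had 7 negative of 11, with a median of -0.013. Without siScr replicate 1 the negative counts of these lists were 7 of 12 and 7 of 11. Pdss1, which builds the ubiquinone tail, and Rabggtb, a subunit of the Rab prenyltransferase, gave replicate differences of 0.54 (SE 0.13) and 0.46 (SE 0.12), neither past the test.

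The list of export, esterification, uptake and oxysterol genes had 19 negative of 23 between the groups, against 52.8% of all features, with a median of -0.073 and 0 past limma's test, with or without adjustment. Without siScr replicate 1, the highest array for 13 of them, 15 were negative, against 55.1% of all features. Between the replicate numbers 2 of its genes passed, against 5.23% of all features. Ch25h, the cholesterol hydroxylase of immune and stromal cells, had -3.72 and -4.14 on the replicate 2 arrays of siErbB4 and siScr, against -2.14 and -1.59 on the replicate 1 arrays. It was lower in replicate 2, at a difference of -2.07 (SE 0.25), with an adjusted limma p of 0.0277. Vldlr, a lipoprotein receptor found in heart muscle, had 3.59 and 3.16 on the replicate 2 arrays of siErbB4 and siScr, against 2.17 and 2.35 on the replicate 1 arrays, and it was higher in replicate 2, at a difference of 1.11 (SE 0.19), with an adjusted limma p of 0.0477. In both genes the replicate sets did not overlap and the groups did.

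Several marker lists moved with the replicate number. Proliferation genes had a median replicate 2 minus replicate 1 difference of 1.40, and all 6 passed limma's test, against 5.23% of all features. Fibroblast and matrix genes had -1.10, with 3 of 12 passing, and cardiomyocyte genes 0.48, with 3 of 15. Hepatic and visceral endoderm genes had 0.59 over 7 of 10 listed, with 1 passing, endothelial genes -0.48 over 4 of 6, and pluripotent genes -0.058 over 10, with 0 passing in either. The sterol genes had -0.14. Between siErbB4 and siScr the same lists had medians of 0.17 for proliferation, -0.47 for fibroblast and matrix and -0.065 for cardiomyocyte genes. They were 0.15 for endoderm, -0.34 for endothelial and 0.39 for pluripotent genes, with 0 genes of any marker list past limma's test, with or without adjustment. Leaving out siScr replicate 1 gave medians of -0.54 for proliferation, 0.39 for fibroblast and matrix and -0.24 for cardiomyocyte genes. They were -0.20 for endoderm, -0.021 for endothelial and 0.38 for pluripotent genes. These set siErbB4 replicates 1 and 2 against siScr replicate 2, so that part of the replicate difference enters them. Within the replicate 2 arrays alone, the medians were 0.097 for proliferation, -0.15 for fibroblast and matrix and -0.087 for cardiomyocyte genes. There they were 0.096 for endoderm, -0.14 for endothelial and 0.052 for pluripotent genes. Summed scaled signals of the pluripotent list were 42.6 and 32.1 on the siErbB4 arrays, against 27.3 and 28.7 on the siScr arrays, and those of the proliferation list 8.75 and 21.7, against 7.05 and 20.7. Those of the cardiomyocyte list were 1882 and 2336, against 1942 and 2486. Alb, Apoa1, Tie1 and Emcn were among the listed markers too dim to test. The part of cell makeup in the sterol differences was not tested.

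**Figure D4:**
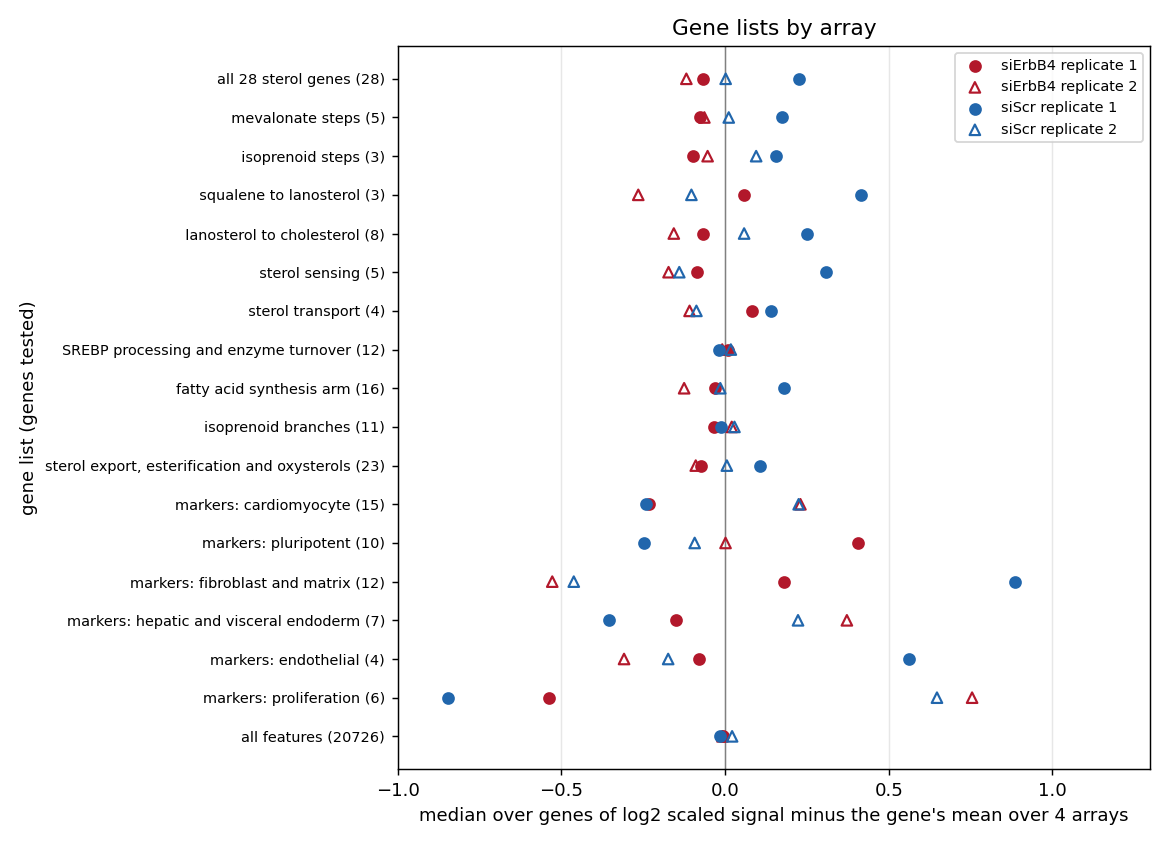
Each point is the median over a list's genes, on 1 array, of the log2 scaled signal minus the gene's mean over the 4 arrays, with the number of genes tested beside each list. Filled circles are replicate 1 and open triangles replicate 2, red for siErbB4 and blue for siScr. Proliferation and fibroblast lists split by replicate number, while the 28 sterol genes have siScr replicate 1 at 0.23 and siErbB4 replicate 2 lowest at -0.12.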

How the data were processed

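Total RNA of 2 siErbB4 and 2 siScr samples was labelled with Cy3 from 200 ng and hybridised to 4 Agilent arrays, per the labels' protocols. The submitters' processing notes name Agilent Feature Extraction 10.7.1.1. The deposited processed intensity was corrected for background and spatial trend within each array, per the file headers. Median intensities of spot and local background, uncorrected, were also deposited. Spot flags (well above background, saturated, outlying) are another measure of the deposited files, per the file headers. The authors' deposited log2 value table correlated at 1.00 with the log2 processed signal minus the 75th percentile on each array, with column medians of -3.84 and -3.86 for siErbB4 1 and 2, and -3.81 and -3.83 for siScr 1 and 2. It was not centred per probe, and its scale and direction are those of the scanner values.

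Control spots (1377) and outlier-flagged spots (131 to 179 per array) were left out, with 0 saturated, and spots sharing a probe were averaged. Values analysed were log2 processed intensities minus the 75th percentile per array. Of 39429 probes, 25690 passed the background flag on both arrays in 1 or both groups, giving 20726 features, 14989 named through unversioned RefSeq accessions (GRCm38.p6). The brightest probe of a gene by mean was used. Both comparisons were fitted with limma 3.58.1 in R 4.3.3 over all features, two-sided, with Benjamini-Hochberg adjustment. The fit was tested on simulated data. The members and lists were chosen with earlier results of these data known. Every member is named. Of the other lists, up to 4 genes past a test are named, or else the 2 with the lowest p. Alternatives were quantile normalization, normexp (offset 50), the authors' table, other filters, the mean of a gene's probes, the replicate number as a term and each array left out.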

Additional observations from a re-analysis of the deposited data

How the results depend on the processing

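Between siErbB4 and siScr, 0 features and 0 sterol genes were called by limma under any alternative run. The count of sterol genes with a negative difference was 25 under every alternative that kept all 4 arrays, and 21 to 27 with arrays left out. Their median was -0.33 to -0.077 with arrays left out, furthest from 0 without siScr replicate 2 and nearest without siScr replicate 1. Genes with every siErbB4 value below every siScr value numbered 16 to 23 with arrays left out, an alternative chosen after seeing the data. The share of all features on that lower side was 31.6% to 36.5%. With the replicate number as a block, 5 of the 28 genes had an unadjusted limma p under 0.05 (Nsdhl, Dhcr7, Tm7sf2, Srebf1 and Srebf2), against 1545 of 20726 features, and 0 were called, the median staying at -0.18. The lowest adjusted limma p of the 28 was then 0.641. No label says that the numbers pair the samples, and deviations of same-numbered arrays from their group means correlated at 0.679 over 20726 features, which are not independent.

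Between the replicate numbers the 1084 features called by limma became 1875 with normexp, 0 without the filter, where 4649 had an unadjusted p under 0.05, and 0 to 1539 with arrays left out. Of the sterol genes, 1 was called with normexp (Abca1) and 0 to 1 with arrays left out (Mvd, without siErbB4 replicate 1). Their median was -0.24 to -0.020 and the count of negative differences 16 to 22 with arrays left out.

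28 of 616 values of single genes changed sign, none past the test. With arrays left out, siErbB4 minus siScr ran -0.014 to 0.072 for Sqle, -0.023 to 0.27 for Stard4, -0.064 to 0.038 for Hmgcs1, -0.41 to 0.15 for Hsd17b7, -0.35 to 0.17 for Scap, -0.047 to 0.20 for Insig2, -0.40 to 0.16 for Abca1, -0.39 to 0.18 for Ggps1 and -0.55 to 0.022 for Lss. Replicate 2 minus replicate 1 ran -0.036 to 0.12 for Idi1, -0.087 to 0.36 for Fdps, -0.076 to 0.0032 for Sqle, -0.31 to 0.39 for Nsdhl, -0.22 to 0.58 for Insig1, -0.30 to 0.035 for Acat2, -0.13 to 0.031 for Sc5d, -0.52 to 0.19 for Dhcr7 and -0.24 to 0.022 for Mvk, and with normexp it was 0.017 for Hmgcs1 and -0.047 for Idi1. The cause of these changes was not tested. All 28 genes were well above background on all arrays, and fits without 1 array assume that a lone sample varies like the others. For siErbB4 minus siScr such fits are also uneven in replicate number.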
